A study of Bos taurus with 68 samples.

Results

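The genes VSIG4, TIMD4, CD14, CD68 and LGMN of liver macrophages and lysosomes were followed in bovine liver through late pregnancy, calving and early lactation. Every clone of the array whose gene symbol, updated through its gene identifier, was one of these 5 names was taken, which gave 8 clones (16 spots) of the 5693 listed clones. VSIG4, TIMD4 and CD14 had 2 clones each, numbered 1 and 2 below, and CD68 and LGMN had 1 each. Liver RNA of cows 6934, 6983, 7079, 7186 and 7188 was hybridised to 2-colour cDNA arrays on days -65, -30, -14, 1, 14, 28 and 49 relative to calving. Each cow and day was measured against a reference standard RNA on 2 arrays of opposite dye orientation. The labels describe all groups by cow and day alone; the sources used here do not give breed, age, parity, feeding or the makeup of the reference RNA. The 30 cow-days of the larger of 2 deposited tables were tested, with 5 cows on days -65, -30, 1 and 28, with 3 on days -14 and 14 and with 4 on day 49. The same animals were sampled again on each day, so the days are compared within cows.

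Kupffer cells are the resident macrophages of the liver sinusoids, where they take up bacteria, old red cells and cell debris from portal and arterial blood. VSIG4 is their complement receptor, which binds fragments of C3 on particles in the blood, TIMD4 binds phosphatidylserine on dying cells, and CD14 passes endotoxin to the receptor TLR4. CD68 is a heavily glycosylated protein of the late endosome and lysosome membrane of macrophages, and LGMN (legumain) is a lysosomal protease that cuts after asparagine and matures other lysosomal enzymes.

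All values are log2 ratios of liver over the reference, with each array centred on its median. A value of 0 is thus the middle of the array, and 1 is a doubling over it. The deposited array medians lay between -0.95 and 0.64, and "above the reference" below means above this middle. A difference between days is a difference of these ratios. The labels do not say which dye channel is the numerator. The direction liver over reference is only likely: with it, the hepatocyte transcripts TF (transferrin) and ASGR2 (a subunit of the asialoglycoprotein receptor) lay above the reference, at mean ratios of 3.79 and 2.50. The other tested hepatocyte markers lay closer to it, ASS1 at 0.63 and APOA1 at 0.06. With the other direction every sign below turns, also of differences between days. Levels of different clones are not compared with each other, since each ratio is relative to that transcript's own level in the reference.

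The member clones lay above the reference on nearly all cow-days. TIMD4, CD14, CD68 and LGMN were above 0 in all 30 cow-days with each of their clones, VSIG4 clone 2 in 28 of 30 and VSIG4 clone 1 in 27 of 29. Of the 21 other macrophage markers tested, each read from 1 clone, 19 also had a mean ratio above 0, but most lay close to it, with a median of 0.24. CD5L, a scavenger protein secreted by Kupffer cells, had a mean ratio of 2.30. The complement C1q chains C1QA, C1QB and C1QC had 2.03, 3.03 and 2.75, and SLC40A1, also of that list, had 2.54. CD163, the macrophage receptor for haemoglobin bound to haptoglobin, was near the reference at 0.04. MARCO, CLEC4F and CSF1R, other markers of these cells, were not among the named clones used here. Since whole liver was measured, the cells that gave the RNA of these clones are not known. Fewer macrophages, less RNA per macrophage and a change in other cells cannot be told apart in any value below.

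LGMN, the lysosomal protease, had the largest difference around calving among the members. On day -30 its log2 ratio was 1.58 in cow 6934, 2.44 in cow 6983, 3.28 in cow 7079, 2.93 in cow 7186 and 2.26 in cow 7188. On day 1 the same cows, in this order, had 1.63, 0.98, 1.67, 2.23 and 1.22. Day 1 was lower in 4 of 5 cows, and cow 6934 was the exception. Apart from its 1.58, the lowest day -30 value was 2.26, above the highest day 1 value of 2.23. The fitted difference of day 1 against day -30 was -0.95 ± 0.27 (SE; 95% interval -1.50 to -0.41), a 1.94-fold lower ratio. Its p-value in the limma fit was 0.00151, and its Benjamini-Hochberg adjusted p over all 5280 tested probes was 0.324, so it did not pass the threshold of 0.05. In this comparison 0.0189% of the tested probes passed.

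On day 28 the cows had 2.69, 2.42, 2.28, 2.58 and 1.70 for LGMN in the same order, higher than on day 1 in 5 of 5 cows. The mean of day 28 was near that of day -30 (2.33 against 2.50), but some cows differed more. Cow 6934 had 2.69 against 1.58 on day -30, and cow 7079 had 2.28 against 3.28. No comparison of day 28 with a day before calving was fitted. The difference of day 28 against day 1 was 0.79 ± 0.27 (SE; limma p = 0.00674, Benjamini-Hochberg adjusted p = 0.523). Day 1 was also below day -14 in the 3 cows that had both days, by -0.95 to -1.51, with a fitted difference of -1.13 ± 0.31 (SE; limma p = 0.00151, adjusted p = 1.00). The day means of LGMN, from high to low, were 2.65 ± 0.69 (SD, n = 3) on day -14, 2.50 ± 0.65 on day -30, 2.33 ± 0.39 on day 28, 2.29 ± 0.77 (n = 3) on day 14, 2.29 ± 0.25 on day -65, 1.85 ± 0.39 (n = 4) on day 49 and 1.54 ± 0.48 on day 1, with n = 5 where not given. Of the 6 steps between neighbours in this order, 1 was larger than the smaller SD of its pair of days, the step between days -65 and 49.

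CD68, the membrane protein of macrophage lysosomes, spread less over the cows on day 1 than on day -30. Its ratio on day 1 was 1.29 in cow 6934, 1.24 in cow 6983, 1.40 in cow 7079, 1.44 in cow 7186 and 1.24 in cow 7188, with an SD of 0.093, against 1.43, 1.67, 2.05, 2.29 and 1.22 on day -30 with an SD of 0.44. These are averages of arrays that differed more than that on day 1. Liver in Cy3 and in Cy5 gave 0.90 and 1.68 in cow 6934, 1.80 and 0.68 in cow 7188, and 1.47 and 1.34 in cow 7079. In cow 6983 the 2 spots of the Cy3 array gave 2.62 and -0.91. Day 1 was lower in 4 of 5 cows, and in cow 7188 the 2 days lay within 0.021 of each other. The fitted difference was -0.41 ± 0.24 (SE; limma p = 0.107, Benjamini-Hochberg adjusted p = 0.680). On day 28 the cows had 2.44, 2.30, 1.72, 1.69 and 1.26, each higher than on day 1, and the difference was 0.56 ± 0.24 (SE; limma p = 0.0309, adjusted p = 0.613). This difference ranged from 0.022 in cow 7188 to 1.14 in cow 6934. On day -14 the 3 cows lay between 1.64 and 1.97, above every cow on day 1; CD68 was the only member whose values on these days did not overlap. That held in the lower direction for 0.498% of the probes compared. From high to low the day means were 1.91 on day -65, 1.88 on day 28, 1.83 on day -14, 1.73 on day -30, 1.34 on day 14, 1.32 on day 1 and 1.29 on day 49, and the step from day -30 to day 14 was the only one larger than the smaller SD of its days.

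TIMD4, the phosphatidylserine receptor, had its lowest day mean on day 14 with both clones, over 3 cows that did not include cows 6934 and 7188. These cows were measured on day 14 only on another array print, which was not tested. There clones 1 and 2 had 1.13 and 1.55 in cow 6934 and 3.20 and 1.92 in cow 7188, so cow 7188 had no low value on that day. Clone 1 had 2.79 in cow 6934, 1.31 in cow 6983, 1.65 in cow 7079, 2.46 in cow 7186 and 1.46 in cow 7188 on day -30, and 1.64, 0.89, 1.83, 0.88 and 0.70 on day 1. Day 1 was lower in 4 of 5 cows, cow 7079 being the exception, and the days overlapped. The difference was -0.75 ± 0.27 (SE; limma p = 0.0115, Benjamini-Hochberg adjusted p = 0.488). On day 28 the values were 2.08, 1.83, 1.96, 1.41 and 1.37, higher than on day 1 in 5 of 5 cows, with a difference of 0.54 ± 0.27 (SE; limma p = 0.0596, adjusted p = 0.649). On day 14 the 3 cows had 0.63 (cow 6983), 1.42 (cow 7079) and 0.62 (cow 7186), each lower than the same cow's value on day -30 and on day 28. In cows 6983 and 7186 the arrays with exchanged dyes of day 14 did not correlate below 0 as opposed pairs should (0.03 and 0.08). Cow 6983 had 2.03 with liver in Cy3 and -0.77 with liver in Cy5.

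Clone 2 of TIMD4 gave a similar course. It had 1.74, 1.27, 2.13, 2.65 and 1.34 on day -30 and 1.50, 0.81, 1.66, 1.06 and 0.87 on day 1, in the same order of cows. It was the only member clone lower on day 1 in 5 of 5 cows, as were 5.65% of all probes compared, and the exact sign-flip test over the cows gave p = 0.0625, 2-sided, the smallest that 5 cows allow. Its fitted difference was -0.65 ± 0.28 (SE; limma p = 0.0304, Benjamini-Hochberg adjusted p = 0.577). On day 28 it had 2.56, 1.77, 1.48, 2.14 and 0.43, higher than day 1 in 3 of 5 cows, with a difference of 0.49 ± 0.28 (SE). The clones correlated with each other at Pearson r = 0.67 over the 30 cow-days and at 0.60 after each cow's mean was subtracted. They differed most on day 49, at day means of 1.73 ± 0.84 for clone 1 and 1.21 ± 0.36 for clone 2 (SD, n = 4).

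VSIG4, the complement receptor, gave different values with its 2 clones. Clone 2 had 1.17 in cow 6934, 0.32 in cow 6983, 1.60 in cow 7079, 1.07 in cow 7186 and 0.85 in cow 7188 on day -30, and 1.03, -1.18, 0.46, 0.49 and 0.98 on day 1. Day 1 was lower in 4 of 5 cows, and its lowest value, in cow 6983, stood apart from the other 4. The difference was -0.64 ± 0.29 (SE; limma p = 0.0366, Benjamini-Hochberg adjusted p = 0.585). Without cow 6983 it was -0.43, at an unadjusted p of 0.179 in limma. The value of -1.18 came from 1 array of the pair: the array with liver in Cy3 gave 0.28 and the array with liver in Cy5 gave -2.64.

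Clone 1 of VSIG4 had no value for cow 7079 on day 14, which left 2 cows on that day, so it missed the requirement of 3 cows per day and was fitted without that filter, a choice made after its values were seen. Its day means ran from 0.51 ± 0.69 (SD, n = 4) on day 49 to 1.04 ± 0.89 (n = 5) on day 28. Its difference of day 1 against day -30 was -0.21 ± 0.30 (SE; limma p = 0.496), and against day -14 it was 0.14 ± 0.36, on the other side of 0 from clone 2 at -0.80 ± 0.34. The clones of VSIG4 correlated at r = 0.34 over 29 cow-days, and at 0.21 with cow means removed.

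CD14, the endotoxin co-receptor, spread widely over the cows on day -30, with SDs of 0.81 and 0.95 for its clones, against 0.24 and 0.29 on day 1. Clone 1 had 0.65 in cow 6934, 0.79 in cow 6983, 2.41 in cow 7079, 2.21 in cow 7186 and 1.75 in cow 7188 on day -30, and 1.02, 1.33, 1.27, 1.42 and 0.83 on day 1. Clone 2 had 0.32, 1.57, 2.50, 2.18 and 0.64 on day -30 and 0.83, 1.08, 1.41, 0.65 and 1.10 on day 1. Each clone was lower on day 1 in 3 of 5 cows, and on both clones day 1 lay inside the wider range of day -30. The differences were -0.39 ± 0.33 for clone 1 and -0.43 ± 0.28 for clone 2 (SE; limma p = 0.247 and 0.137). Against day -14, clone 1 had -0.71 ± 0.39 and clone 2 had -0.21 ± 0.33. From day 1 to day 28, clone 1 differed by -0.11 ± 0.33 and clone 2 by 0.30 ± 0.28, on opposite sides of 0. The highest CD14 values came from cows 7079 and 7186, at up to 2.87 for clone 1 (cow 7186, day -14) and 2.50 for clone 2 (cow 7079, day -30).

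**Figure D1:**
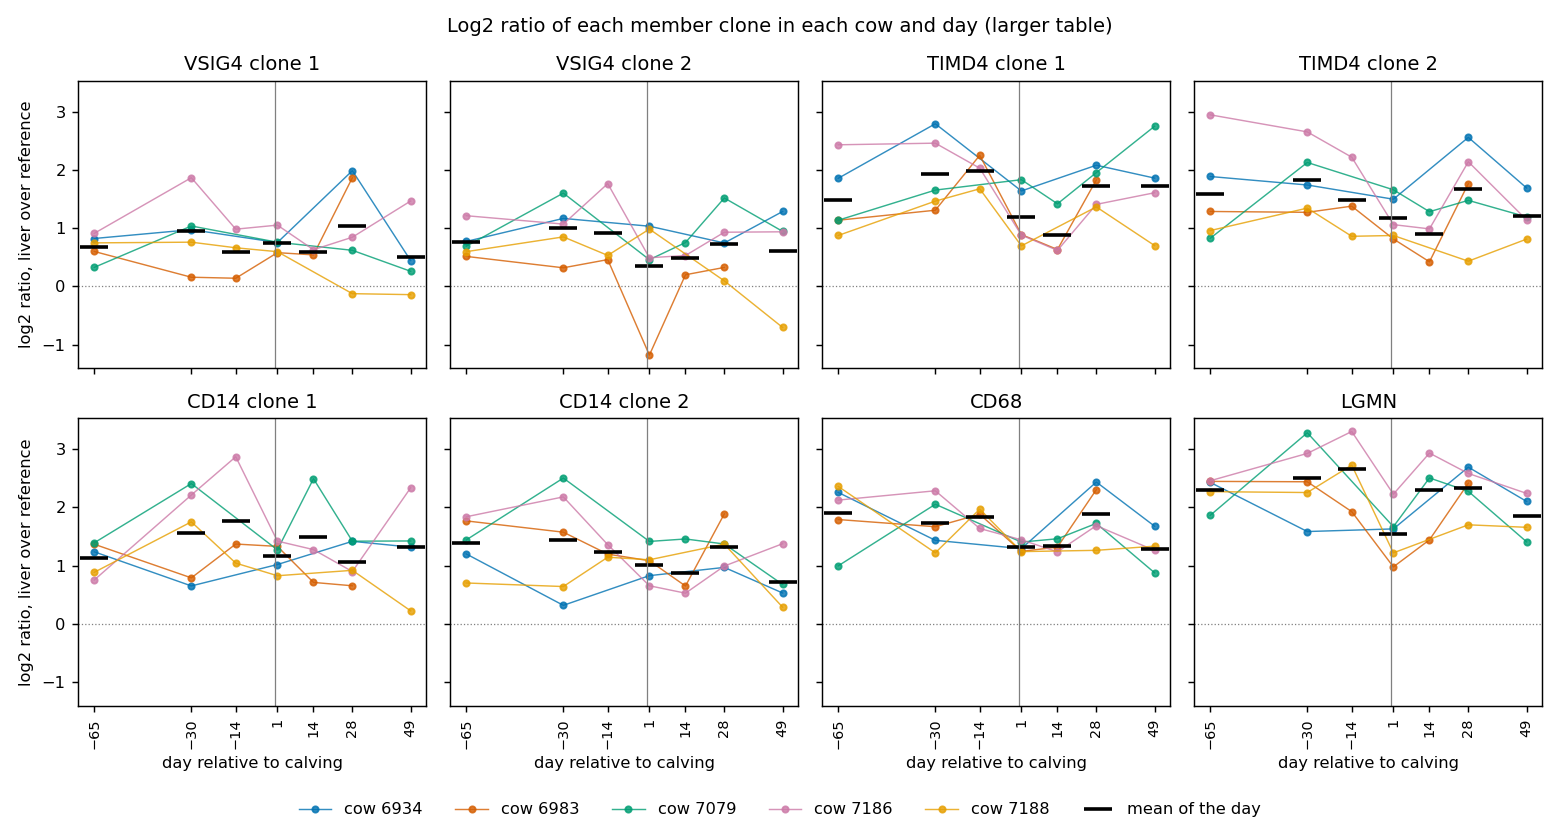
Log2 ratio of liver over reference (vertical axis) for each of the 8 member clones by day relative to calving (horizontal axis; the vertical line marks calving). Points joined by lines are single cows, and black bars are day means. LGMN had its lowest day mean on day 1 (1.54) and TIMD4 its lowest on day 14 (0.89 and 0.90, 3 cows). CD68 had an SD of 0.093 on day 1, over averages of arrays that differed more than that. The single low point of VSIG4 clone 2 is cow 6983 at -1.18.

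The 7 member clones that entered the fit across all probes all had a negative estimate for day 1 against day -30, from -0.95 (LGMN) to -0.39 (CD14 clone 1), with a median of -0.64. The median of all 5280 probes was -0.06, and 57.1% of them lay below 0. Of the 7, 4 had an unadjusted p under 0.05 in the lower direction, which 7.08% of all probes had. None of the 7 passed after adjustment (1 probe of 5280 passed), with adjusted p-values from 0.324 to 0.785. At least 4 of 5 cows were lower on day 1 with LGMN, CD68, both VSIG4 clones and both TIMD4 clones, which held for 27% of the probes compared. The members are few, and 3 pairs of clones share a gene, so these are counts of clones and not of independent genes.

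Between day 1 and day 28 the members mostly lay on the other side: 6 of 7 had a positive estimate, with a median of 0.49, where 61.8% of all probes lay above 0 with a median of 0.06. LGMN and CD68 had an unadjusted p under 0.05 in the higher direction, which 5.15% of all probes had. LGMN, CD68 and TIMD4 clone 1 were higher in 5 of 5 cows, which held for 6.22% of the probes compared. No probe passed the adjusted threshold in this comparison (0%), and 413 had an unadjusted p under 0.05 in limma. Both comparisons use the same day 1 arrays, so a low or high reading on day 1 enters both with opposite sign.

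Day 1 against day -14 had 3 cows with both days. All 7 tested members had a negative estimate (57.1% of all probes), from -1.13 for LGMN and -1.05 ± 0.32 (SE) for TIMD4 clone 1 to -0.21 for CD14 clone 2. LGMN, TIMD4 clone 1 and VSIG4 clone 2 had an unadjusted p under 0.05, in a comparison where 1.48% of probes did so in the lower direction. LGMN, TIMD4 clone 1, CD68 and both CD14 clones were lower in each of the 3 cows (11% of the probes compared). No probe passed after adjustment (0%; 121 had an unadjusted p under 0.05), and 3 cows cannot give an exact sign-flip p below 0.25.

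Over all 7 days at once, the moderated F test gave the smallest unadjusted p-values among the members to TIMD4 clone 1 (F = 3.90, p = 0.00773) and LGMN (F = 3.78, p = 0.00899). TIMD4 clone 2 followed at p = 0.0469, and the other tested members lay between 0.0761 and 0.373. Of all probes 5.21% had an unadjusted p under 0.05. After Benjamini-Hochberg adjustment in limma the members lay between 0.777 and 0.995, and 1 of 5280 probes passed (0.0189%), which was not a member.

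The mean of days 14, 28 and 49 was below the mean of days -65, -30 and -14 in all 7 tested members, as in 52.2% of all probes. The estimates were close together, from -0.47 ± 0.18 (SE) in TIMD4 clone 1 and -0.47 ± 0.19 in clone 2, through -0.45 in CD14 clone 2, -0.41 in VSIG4 clone 2, -0.38 in LGMN and -0.32 in CD14 clone 1, to -0.31 in CD68. Unadjusted p-values were under 0.05 in 5 of 7, against 2.48% of all probes in the lower direction, and CD14 clone 2 was lower in 5 of 5 cows (3.6% of the probes compared). In cows 7188 and 6934, however, its difference was only -0.002 and -0.010, and in the other cows it lay between -0.83 and -0.24. None passed after adjustment in limma (adjusted p = 1.00 for each; 0% of all probes passed and 204 had an unadjusted p under 0.05).

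A pattern over the whole array moved with this lactation result. Across the 5280 probes, which are not independent replicates, the lactation estimate correlated with the probe's own mean ratio at Pearson r = -0.42, so probes well above the reference, as the members are, tended to have lower values in lactation; for the 3 comparisons with day 1 this correlation lay between -0.03 and -0.01, but it depended on the setting: with arrays scaled to a common spread it was -0.46 for day 1 against day -30 and 0.32 for day 28 against day 1, and on arrays with liver in Cy3 alone 0.34 and -0.44, where the lactation value was -0.04. The middle of the array was also narrower on day 49, with a mean median absolute deviation of 0.28 per cow-day against 0.34 to 0.41 on the other days. The 2 arrays of a cow-day, with dyes exchanged, should correlate below 0 before turning. These correlations ran from -0.53 (cow 6983, day 28) to 0.18 (cow 7188, day 49). Some lay only just below 0, such as -0.003 in cow 6934 on day 28 and -0.005 in cow 7079 on day 49. The 4 pairs on the other array print lay between -0.67 and -0.45. In 5 of the 30 cow-days the pair did not correlate below 0, and 4 of these lay in lactation (cow 6934 on day 49, cow 6983 on day 14, cow 7186 on day 14 and cow 7188 on day 49). The other was cow 7079 on day 1. Without these 5 cow-days the correlation of the lactation estimate with the mean ratio was 0.14. The members then had lactation estimates from -0.42 (VSIG4 clone 2) to 0.08 (CD14 clone 1), TIMD4 clone 1 had -0.13, and the smallest unadjusted p was 0.119 in limma. Of the 5 cow-days, only cow 7079 on day 1 lies on a day of the comparison of day 1 against day -30. Leaving the 5 out is thus a weaker check of that comparison than of the lactation one. There it gave -0.98 for LGMN, -0.90 and -0.79 for the TIMD4 clones, -0.49 for CD68 and -0.46 for CD14 clone 2, each larger in size than with them. VSIG4 clone 2 had -0.56 and CD14 clone 1 had -0.33, both smaller in size.

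**Figure D2:**
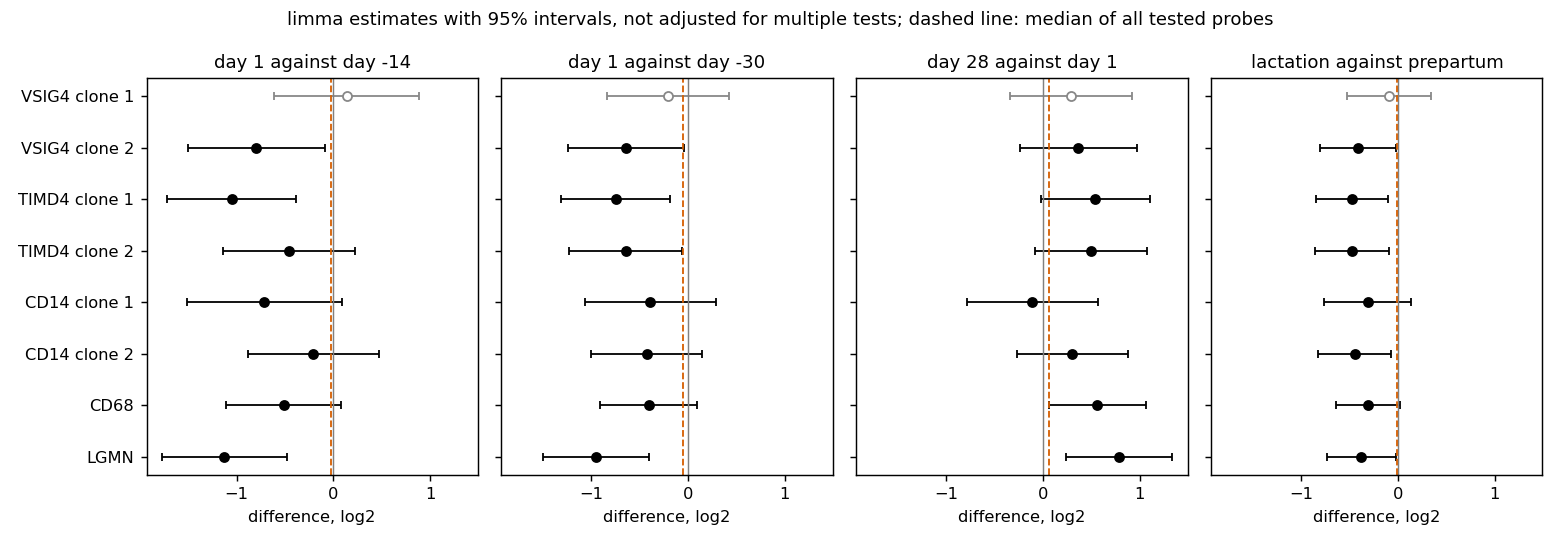
Estimated difference in log2 ratio (horizontal axis) for each member clone in the 4 comparisons between days, from limma, with unadjusted 95% intervals; open grey points are VSIG4 clone 1, which was fitted without the filter, and the dashed line is the median of all tested probes. The 7 tested clones lie below 0 in all comparisons except day 28 against day 1, where 6 of 7 lie above 0.

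The spread of the arrays also varied between single cow-days and moved with some members. With cow means removed from both, the median absolute deviation of a cow-day correlated over 30 cow-days at 0.67 with CD14 clone 2 and at 0.47 with CD14 clone 1, and between 0.16 and 0.38 with the other members. For the 223 complete probes with a mean ratio above 1 the median of this correlation was 0.33. The cow-days share arrays with all other probes, so these are descriptions of the same libraries. On day -30 the spread was widest in cow 7186 at 0.62, where LGMN differed by -0.70 on day 1. It was 0.41 in cow 6983 and 0.40 in cow 7079, where LGMN differed by -1.46 and -1.61. It was narrow in cows 6934 at 0.22 and 7188 at 0.23, where LGMN differed by 0.045 and -1.04. The spread on day 1 lay between 0.30 and 0.47. Without cow 6934 the LGMN difference of day 1 against day -30 was -1.20, and without cow 7079 it was -0.79. With each array scaled to a median absolute deviation of 1 (after the usual normal constant), LGMN differed by -1.89 such units and passed (Benjamini-Hochberg adjusted p = 0.0356 in limma), the only member to do so in this comparison under any setting tried; over the 17 alternatives its adjusted p ran from 0.0356 to 0.862. Under that scaling 10 probes passed lower and 0 higher, and the estimate correlated with the probe's mean ratio at -0.46, as given above. The part of array spread in these differences was not tested beyond that.

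The pairs of arrays with exchanged dyes agreed poorly within single clones. After both were turned to liver over reference, the array with liver in Cy5 differed from its partner on average by -1.34 for VSIG4 clone 2, by -1.31 for TIMD4 clone 1 and by -1.05 each for VSIG4 clone 1 and TIMD4 clone 2. For CD68 and CD14 clone 2 the mean difference was -0.10 and 0.12, and for LGMN it was 0.77 in the other direction. Such an offset cancels in the average of both arrays, but the 2 arrays of a pair also ranked the cow-days differently: over the cow-days they correlated at r = 0.36 for TIMD4 clone 2, 0.29 for CD14 clone 2, 0.22 for LGMN, 0.18 for TIMD4 clone 1 and CD14 clone 1, 0.14 for VSIG4 clone 2, 0.07 for CD68 and -0.09 for VSIG4 clone 1. VSIG4 clone 2 was above the reference on 28 of 30 arrays with liver in Cy3 and on 18 of 30 with liver in Cy5.

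LGMN kept its difference in either orientation. Day 1 against day -30 was -0.93 on arrays with liver in Cy3 alone and -0.97 on arrays with liver in Cy5 alone, at unadjusted p-values of 0.0338 and 0.0204 in limma. TIMD4 clone 1 had -0.38 and -1.12, and TIMD4 clone 2 had -0.33 and -0.96, so most of the TIMD4 difference lay on the Cy5 arrays. CD14 clone 1 had 0.07 and -0.85. The duplicate spots of LGMN also lay closest together, with a median absolute difference of 0.158 within an array, against 0.868 for VSIG4 clone 1, the widest of the members.

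**Figure D3:**
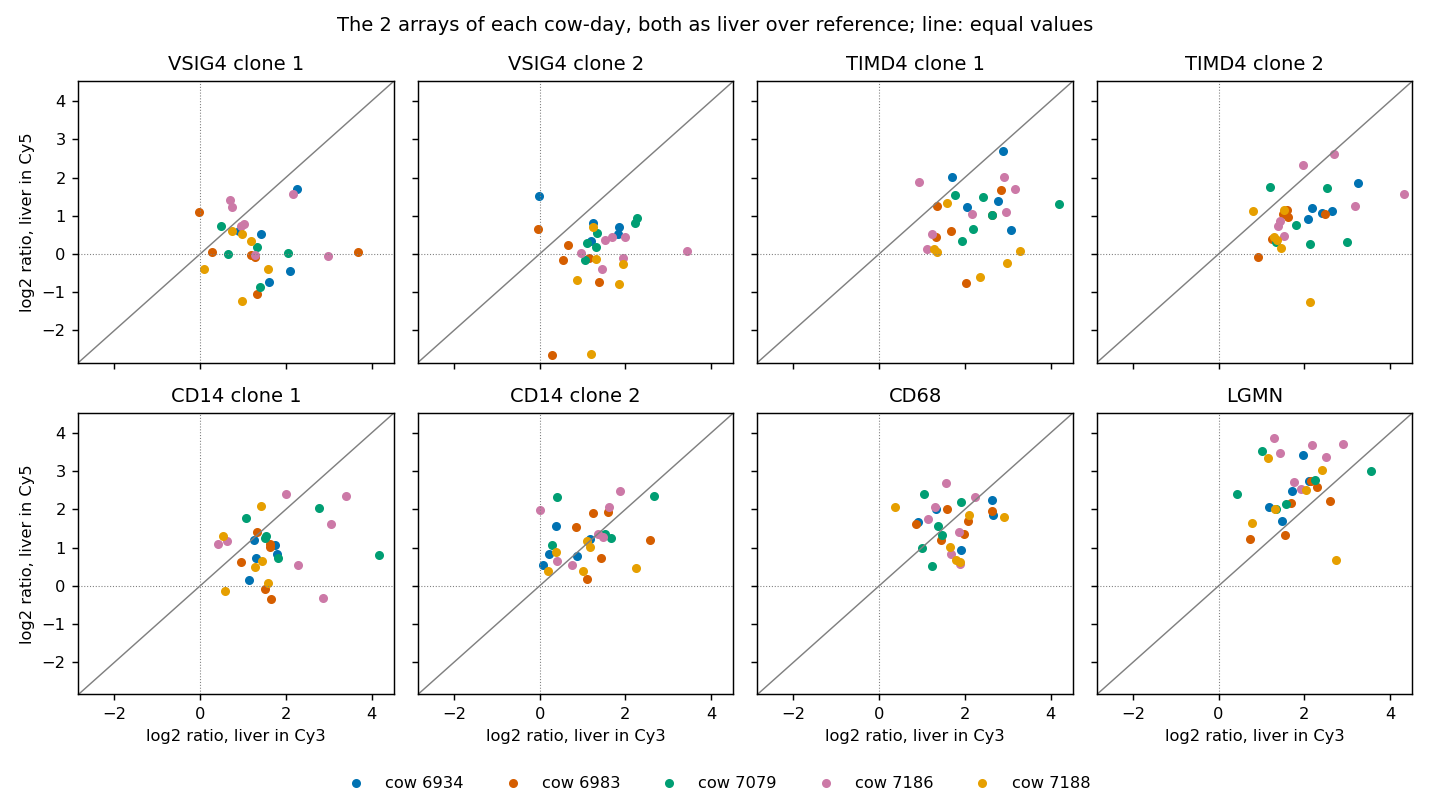
Log2 ratio of liver over reference on the array with liver in Cy3 (horizontal axis) against the array with liver in Cy5 (vertical axis) for each cow-day and member clone, coloured by cow; the line marks equal values. Points of both VSIG4 and both TIMD4 clones lie mostly below the line (mean differences of -1.05 to -1.34), and points of LGMN mostly above it (0.77).

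Members varied together over the cow-days to differing degrees. With cow means removed, the 19 pairs of clones of different members (VSIG4 clone 1, measured in 29 cow-days, left out) correlated at r = 0.12 to 0.72 with a median of 0.40, and all pairs of the 4879 complete 1-gene probes had a median of 0.01 and a 95th percentile of 0.61. The highest member pairs were TIMD4 clone 2 with CD68 at 0.72 and CD68 with LGMN at 0.70, followed by CD14 clone 2 with CD68 at 0.63 and with TIMD4 clone 2 at 0.62. TIMD4 clone 1 and CD14 clone 1 correlated least, at 0.12. These points share cows, arrays and the array spread described above.

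Among all named probes measured in every cow-day, the course most like that of LGMN was that of ANXA6 (an annexin of membranes, r = 0.88, 30 cow-days, cow means removed), followed by TADA3 and NUCB1, both at 0.80. For CD68 they were C1QC, a chain of complement C1q made by macrophages, at 0.81, TRAPPC4 at 0.79 and LAMP1, a main lysosome membrane protein, at 0.77. For CD14 clone 2 they were TMT1B at 0.92, C1QA at 0.88 and SLC43A1 at 0.88, and for clone 1 PAG12 at 0.69, MPST at 0.68 and TGFBRAP1 at 0.64. TIMD4 clone 2 was most like QSOX1 at 0.78, TTLL12 at 0.74 and CD68. TIMD4 clone 1 was most like ATP6AP1, a subunit of the proton pump of lysosomes, at 0.58, SRP68 at 0.56 and LAMTOR1, which anchors the Ragulator complex on lysosomes, at 0.56. These 3 values of TIMD4 clone 1 lay below the 95th percentile of all probe pairs (0.61), so none of them stood out. The 99th percentile was 0.81. VSIG4 clone 1 was most like CALCOCO2 (0.73, 29 cow-days), JAK1 (0.72) and UBE2R2 (0.69), and clone 2 like MRPL4 (0.72), HDHD3 (0.69) and KIAA1191 (0.64). Clones of 1 gene thus had no gene in common among their nearest 3.

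Other macrophage markers were measured beside the members. In this and the other lists each gene was read from 1 clone, the one measured in most cow-days, or the first on the array where clones tied. Further clones of a gene were not read, although C1QB, C1QC, PSAP and LAPTM5 had 2 each and CTSB had 3. Of 21 tested list genes besides the members, 14 had a negative estimate on day 1 against day -30, as had 57.1% of all probes. The median was -0.17 against -0.06 for all probes, and none passed the test in either direction. C1QC had -1.16 (SE 0.41), but the other C1q chains C1QA and C1QB had -0.09 and -0.24. CD5L had -0.63 (SE 0.60), while AIF1, a calcium-binding protein of macrophages, had 0.08 and CD163 had 0.17. The highest of the list, named after its values were seen, was SLC11A1, a metal transporter of the phagosome, at 1.04 (SE 0.36). Of the 21, 4 had an unadjusted p under 0.05 in the lower direction (7.08% of all probes) and 1 in the higher (1.29%). The integrin chain ITGB2 had -0.17. From day 1 to day 28, 15 of the 21 had a positive estimate with a median of 0.14, where 61.8% of all probes lay above 0. C1QC had 0.93, CD5L 0.85 and C1QA 0.23, while 6 were below 0, C1QB at -0.17 and SLC11A1 at -0.63 among them.

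Lysosomal genes besides CD68 and LGMN were counted in the same way. The luminal list held proteases, other hydrolases and related proteins that are not hydrolases, such as PSAP and NPC2. Of its 34 tested genes, 20 were below 0 on day 1 against day -30, with a median of -0.08 and none passing. Of all probes 57.1% were below 0, so this count was near the share of the whole array. PSAP, the precursor of the saposins that help degrade sphingolipids, had -0.99 (SE 0.35; limma adjusted p = 0.464), the protective protein CTSA -0.52, the cysteine protease CTSB -0.37 and CTSS -0.19, whereas CTSD had 0.15, CTSZ 0.16 and the cholesterol carrier NPC2 -0.01. Of 27 lysosomal membrane proteins and proton pump subunits besides CD68, 19 were below 0 (57.1% of all probes), with a median of -0.20 and none passing. Among them 3 had an unadjusted p under 0.05 in the lower direction (7.08% of all probes) and 2 in the higher (1.29%). LAMP1 had -0.03, LAMP2 0.01, the glucocerebrosidase receptor SCARB2 -0.45 and the tetraspanin CD63 0.55. The lowest of the list, named after its values were seen, was LAPTM5 at -1.11. From day 1 to day 28, 27 of the 34 luminal genes had a positive estimate with a median of 0.14, and 18 of the 27 membrane genes with a median of 0.18. Of all probes 61.8% lay above 0 in that comparison.

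Known partners of the 3 receptors were few on the array. Besides CD14, 6 of 9 tested genes of endotoxin recognition were below 0 on day 1 against day -30 (median -0.13), with LY96, the lipid A-binding subunit of the TLR4 complex, at -0.16. TLR4, LBP, TLR2 and MYD88 were not among the named clones used here. Besides TIMD4, 10 of 19 genes of dying-cell uptake and scavenging were below 0 (median -0.03), with the receptor kinase AXL at 0.17 and the bridging protein MFGE8 at -0.41. Besides VSIG4, 4 of 4 complement receptors and regulators were below 0 (median -0.19), ITGB2 among them. Of all probes 57.1% were below 0 in this comparison, with a median of -0.06. None of these listed genes passed the test.

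Markers of other liver cells were measured on the same arrays. All 5 tested stellate cell and fibroblast markers had negative estimates on day 1 against day -30, with a median of -0.76, DCN (decorin) at -1.08 and COL3A1 at -0.76, and positive ones from day 1 to day 28 with a median of 0.62. Of 6 endothelial markers 5 were below 0 (median -0.32), of 4 hepatocyte markers 2, with TF at -1.25 (SE 0.34) and ASGR2 at 0.68, of 4 bile duct markers 1 and of 6 T and NK cell markers 3. Of all probes 57.1% were below 0 on day 1 against day -30, and 61.8% lay above 0 from day 1 to day 28. None of the markers passed the adjusted test. Whether the cell makeup of the liver samples played a part in the members' differences was not tested.

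**Figure D4:**
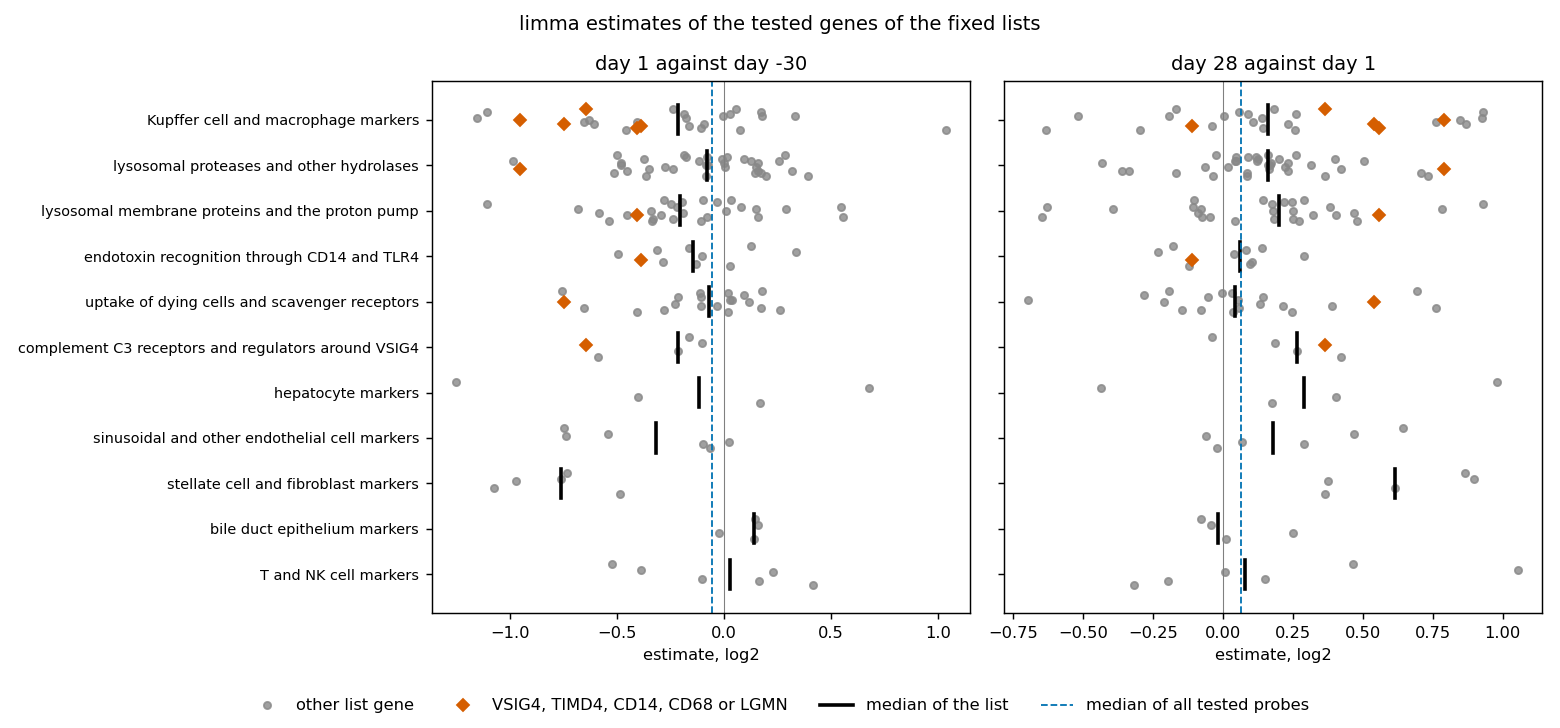
Limma estimates in log2 (horizontal axis) of the tested genes of each list for day 1 against day -30 (left) and day 28 against day 1 (right). Diamonds are the members, grey points the other genes, black bars list medians with members included, and the dashed line is the median of all tested probes (-0.06 and 0.06). On day 1 against day -30, LGMN (-0.95) lies at the low end of the list of lysosomal hydrolases, next to PSAP (-0.99), a listed protein that is not a hydrolase. Stellate cell markers have the lowest median (-0.76).

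The smaller table, from another array print, held 4 further cow-days, which were not tested. On day -14, cow 6934 had 2.69 for LGMN, 2.33 for CD68, 2.08 and 1.95 for the TIMD4 clones and 0.22 for CD14 clone 2, and cow 7079 had 2.21, 1.50, 1.24, 0.45 and 0.81. On day 14, cow 6934 had 2.56, 1.93, 1.13, 1.55 and 0.38, and cow 7188 had 2.67, 1.64, 3.20, 1.92 and 0.21. Within cow 6934, the only animal with both days there, LGMN, CD68 and both TIMD4 clones were lower on day 14 and VSIG4 clone 1 and CD14 clone 2 higher; VSIG4 clone 2 was also lower. The difference was smaller for LGMN than for TIMD4 clone 1. In the same 4 cow-days VSIG4 ranged from 0.01 to 1.94 with clone 1 and from 0.58 to 2.06 with clone 2, and CD14 clone 1 had -0.91 to 1.29 in the 3 where both orientations were measured. Cow 7188's 3.20 for TIMD4 clone 1 was above every value of this clone in the larger table, whose highest was 2.79; the tables were not normalised together.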

How the data were processed

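Liver RNA of 5 cows on 7 days was hybridised with a reference RNA to 68 two-dye cDNA arrays, making 34 cow-days; per the labels, images were quantified with GenePix 4.0. The values the authors deposited are log2 ratios of the dye channels per spot; the sources used here do not give background correction or normalization. The tables hold no channel intensities, so the number of arrays limits precision.

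Ratios of arrays with liver in Cy3 were turned, each array was centred on its median, and the 2 spots of a clone and then both dye orientations were averaged. Clones with values in at least 3 cows on each day (5280) were fitted with limma 3.58.1 in R 4.3.3, with day and cow as fixed terms, 19 residual degrees of freedom, 2-sided tests and Benjamini-Hochberg adjustment over all probes at 0.05. The cow entered as a block since each animal gave several days (a pairing by label): deviations from day means correlated at 0.14 within cows and at -0.03 between cows. Scripts were tested on simulated data. Symbols came from the platform table, updated for 5591 clones through the RefSeq gene table of ARS-UCD2.0. No coordinates or sequences are given, since neither a genome build nor sequence tables were used. Named genes were all member clones, a fixed set of pathway genes and, per clone, the 3 genes of most similar course. Members and lists were chosen with earlier results of these data known. Alternatives covered block, centring, scaling, filter, dye orientation, array weights, tables, cow-days and each cow left out.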

Additional observations from a re-analysis of the deposited data

Results flagged for a closer look

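Of 40 groups of 4 or 5 cows (each clone on each day that had so many), 1 held a cow far from the others. VSIG4 clone 2 on day 1 was -1.18 in cow 6983, and the nearest other cow was at 0.46, a gap of 0.74 of the whole range against a limit of 0.71 for 5 cows. Chance alone marks about 1 in 20 such groups. The 2 spots on the array with liver in Cy5 gave -2.01 and -3.27, and the 2 on the array with liver in Cy3 gave 0.43 and 0.12, so both spots of 1 array carried the low value. VSIG4 clone 1 had 0.58 in the same cow on the same day.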

How the results depend on the processing

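Of 536 signed member estimates under the alternatives, 520 kept their sign and side of the threshold, 14 changed sign, and 2 passed only there; of 126 tests of the day effect, 2 passed only there. The cause of these changes was not tested. With array weights, TIMD4 clone 1 passed for day 1 against day -14 (-1.25, adjusted p = 0.0182 in limma) and TIMD4 clones 1 and 2 for the day effect (F = 10.3 and 5.15), making 1 and 2 members, while all probes passing numbered 29 and 195; for day 1 against day -30 they numbered 2. Scaling arrays to 1 median absolute deviation let 10 probes, 1 of them a member (LGMN, -1.89), pass for day 1 against day -30, where quantile normalization, Cy5 arrays alone and only the contrast's days gave 0. The 1 probe passing the day effect became 0 without the replicate block (cow pairing), without centring, with scaling, with quantile normalization, on Cy5 arrays, and without the non-opposing cow-days; no member call changed with the block. Cy3 arrays alone gave 1 probe for day 1 against day -14 and 6 for day 28 against day 1. With each cow left out, the counts lay between 0 and 1 for day 28 against day 1 (1 without cow 6934) and for day 1 against day -30 (0 without cow 7188), and at 0 for the day effect.

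Signs changed in VSIG4 and CD14 only. In lactation against prepartum, VSIG4 clone 1 turned to 0.049 without centring, 0.039 on Cy3 arrays and 0.011 with array weights (-0.37 to 0.12 with each cow left out, 0.12 without cow 7188), and CD14 clone 1 to 0.13 on Cy3 arrays and 0.078 without non-opposing cow-days. For day 1 against day -14, CD14 clone 2 turned to 0.14 on Cy3 arrays and 0.070 with both tables joined, and VSIG4 clone 1 ran from -0.033 (without cow 6983) to 0.32 with each cow left out. For day 1 against day -30, CD14 clone 1 turned to 0.068 on Cy3 arrays. For day 28 against day 1, CD14 clone 2 turned to -0.027 on Cy3 arrays, and CD14 clone 1 to 0.19 with scaling and 0.38 on Cy5 arrays, and it ran from -0.24 to 0.0295 (without cow 6983) with each cow left out. Leaving arrays uncentred moved the median of all probes from -0.06 to 0.07 for day 1 against day -30 and from -0.01 to 0.14 for lactation against prepartum. VSIG4 clone 1 was fitted throughout without the filter, a setting chosen after seeing the data.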
